A study of Mus musculus with 16 samples.

Results

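The 8 C-type lectin receptor genes described here, Clec4d, Clec4e, Clec4n, Clec5a, Clec7a, Clec10a, Clec12a and Mgl2, were taken by symbol from the 52636 gene rows of each library, and all 8 were above the detection floor and among the 11060 genes tested. They were measured in RAW 264.7 cells, a mouse macrophage-like line derived from a tumour induced by the Abelson murine leukaemia virus. Cells received either a non-targeting control siRNA or an siRNA product against Cebpb, which encodes the transcription factor C/EBPβ, each at 25 nM. After 24 h of transfection they were left unstimulated or given isoproterenol, a synthetic agonist of β-adrenergic receptors whose dose and duration the labels do not state. The 4 groups were therefore control siRNA, control siRNA with isoproterenol, Cebpb siRNA, and Cebpb siRNA with isoproterenol (below, both agents). All were transfected, so no untransfected cells enter any comparison, and a single siRNA product stood for the loss of Cebpb. Each group had 4 libraries, named biological replicates by the submitters, of which 2 came from experiment 1 and 2 from experiment 2.

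C-type lectin receptors are surface proteins of myeloid cells that bind sugars, lipids and other structures on microbes and dying cells. Most of those described here signal through the kinase Syk, either by pairing with an adaptor that carries activating tyrosine motifs (FcRγ, the product of Fcer1g, or DAP12, the product of Tyrobp) or by such a motif in their own tail, and Syk then acts through Card9, Bcl10 and Malt1. Clec12a carries an inhibitory motif instead, and Clec10a and Mgl2 act mainly in uptake of galactose-type glycans and are widely used as markers of alternatively activated (M2) mouse macrophages.

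Libraries were made from the 3′ ends of transcripts, and each value is the number of reads of a gene scaled to 1000000 reads of all kinds in its library (RPM). The deposited data list anything up to 1 RPM as 0. Libraries held between 9.42 M and 25.17 M reads (M, 1000000 reads), so that the floor stood for 9.42 to 25.17 reads. RPM values were not divided by transcript length. They are compared below only within a gene, except where shares, sums, ratios or rankings over genes are given. Cebpb itself averaged 76.1 ± 11.2 RPM with control siRNA (SD, n = 4) and 22.9 ± 8.83 RPM with Cebpb siRNA. Its mean was 92.1 ± 10.3 RPM with control siRNA and isoproterenol, and 26.5 ± 2.04 RPM with Cebpb siRNA and isoproterenol. After rescaling, the fit put Cebpb in the siRNA libraries at 30.1% of control without isoproterenol and at 30.2% with it (limma adjusted p = 4.02e-07 and 3.81e-07), and isoproterenol left a log2 difference of 0.25 ± 0.19 (SE) in Cebpb that did not pass the test (limma adjusted p = 0.725 with control siRNA). Of 10 macrophage marker genes all 10 were detected in at least 1 library, Cd80 only with both agents (mean 1.52 RPM). Their summed level was 1257 to 1678 RPM with control siRNA, 1841 to 2189 RPM with control siRNA and isoproterenol, 1508 to 1618 RPM with Cebpb siRNA, and 1585 to 1912 RPM with both. Lyz2 was the largest part, averaging 656 RPM with control siRNA and 1110 RPM with isoproterenol added. Without isoproterenol, Cebpb siRNA raised 6 of the 10 and lowered 2, where 61.3% of all tested genes were called. Mean Fcgr1 went from 20.8 to 7.27 RPM, and mean Csf1r from 206 to 272 RPM. The part of these levels in the results below was not tested. Marker lists of B cells, fibroblasts and epithelial cells were at the floor in every library. Of 10 neutrophil markers 2 were detected (S100a8 and Csf3r), with Ly6g, Elane and Mpo at 0, and their sum was 2.28 to 4.87 RPM with control siRNA, 4.44 to 5.84 RPM with isoproterenol added, 0 to 1.05 RPM with Cebpb siRNA and 0 with both. Of 8 dendritic cell markers 2 were detected (Batf3 and Zbtb46, with Flt3 and Xcr1 at 0), summing to 9.35 to 10.6, 7.35 to 8.73, 3.61 to 7.94 and 4.25 to 6.57 RPM in the same order of groups. Of 8 T and NK cell markers 1 was detected (Lck, with Cd3e at 0), at 3.83 to 5.67, 4.65 to 6.20, 2.70 to 4.03 and 2.40 to 3.51 RPM. In such bulk samples a change in the share of cells that express a gene and a change in RNA per cell cannot be told apart.

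With control siRNA, isoproterenol raised 5 of the 8 receptors and lowered 2, against a background of 1.65% of all tested genes called in this comparison (1.21% higher and 0.443% lower). Clec4n, Clec4e, Clec4d, Clec10a and Clec5a rose by 1.67-, 1.46-, 1.46-, 1.26- and 1.24-fold, Clec12a fell to 57.4% and Clec7a to 60.5% of its unstimulated level, and Mgl2 did not pass the test. The median log2 difference was 0.32 over the 8 receptors and 0 over all tested genes. The receptors were chosen with earlier results of these data known. Their counts and medians beside those of all tested genes are therefore a description and no test of the family, here and in the comparisons below. In every receptor the sign was the same in experiment 1 and in experiment 2. Calls were adjusted over all 11060 genes (limma, Benjamini-Hochberg threshold 0.05). Of all calls in the comparison 73.2% were higher with isoproterenol, and 84.3% were when the values were used as deposited without rescaling. Of the 7 receptor calls only that of Clec4e was kept without a term for experiment, and only that of Clec4e in experiment 2 alone.

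With Cebpb siRNA the differences were larger in 6 of the 8 receptors than with isoproterenol, and smaller in Clec4e and Clec7a, by estimate and without a test. Without isoproterenol all 8 receptors passed the test, 7 higher and Clec7a lower, where 61.3% of all tested genes were called (30.9% higher and 30.4% lower). A call alone therefore sets no receptor apart in this comparison. The sizes ran from a log2 difference of −0.55 in Clec7a to 1.81 in Clec12a, with a median of 1.14 against 0.01 over all tested genes. With isoproterenol in both groups 7 receptors passed, 6 higher and Clec7a lower, where 62% of tested genes were called (31.6% higher and 30.3% lower), and the median was 1.02 against 0.02. Clec4e was the exception there, at −0.08 ± 0.06 (SE, limma adjusted p = 0.21).

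**Figure D1:**
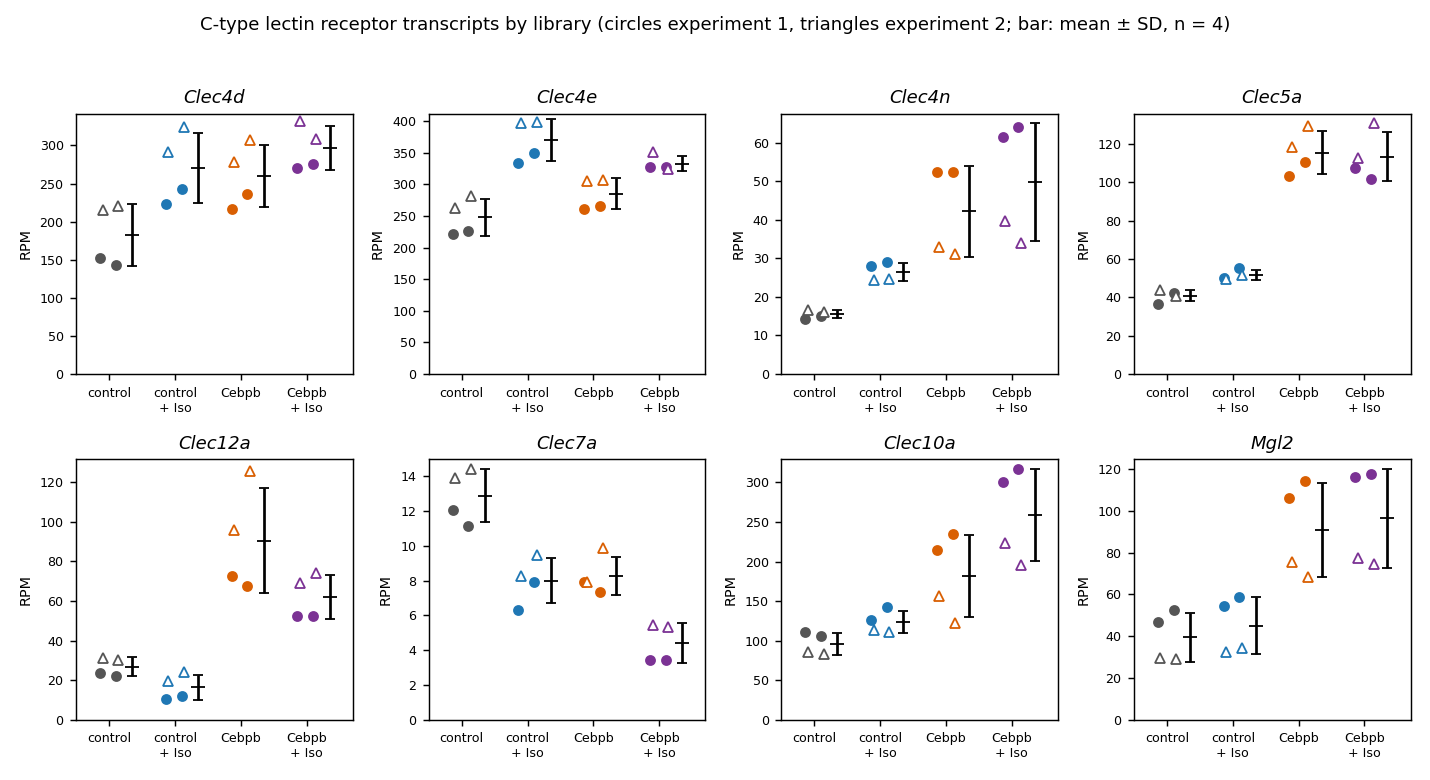
RPM (vertical axis, linear, from 0) of each receptor in the 16 libraries, by group; filled circles are experiment 1, open triangles experiment 2, and black bars the mean ± SD of 4 libraries. Clec4n, Clec5a, Clec12a and Mgl2 with Cebpb siRNA stood above every control siRNA library, and Clec7a was lowest with both agents at 3.43 to 5.47 RPM. Clec4e had its highest mean with control siRNA and isoproterenol, at 334 to 398 RPM.

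**Figure D2:**
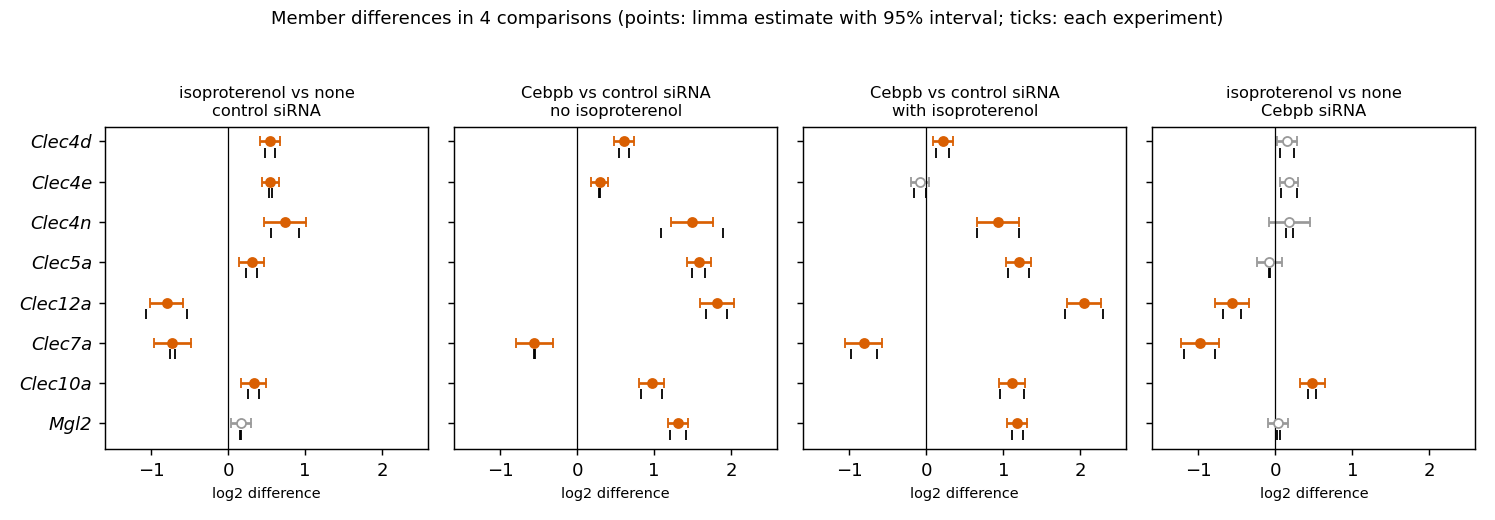
Log2 difference (horizontal axis) of each receptor in 4 comparisons; points are limma estimates over 16 libraries with 95% intervals, filled orange where the adjusted p was under 0.05 and open grey otherwise, and black ticks give each experiment on its own. The receptors spread from −0.55 to 1.81 for Cebpb siRNA without isoproterenol and from −0.80 to 0.74 for isoproterenol with control siRNA.

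Clec4e encodes Mincle, the FcRγ-coupled receptor for the mycobacterial glycolipid trehalose dimycolate, and Clec4d encodes its relative MCL, which can pair with Mincle. On GRCm38 (GENCODE vM21) the genes lie next to each other on chromosome 6, Clec4d (ENSMUSG00000030144.4) at chr6:123262111-123275265 on the plus strand and Clec4e (ENSMUSG00000030142.10) at chr6:123281789-123289870 on the minus strand, 6523 bases apart with 0 annotated genes between. They took the most reads of the 8 receptors, together 64.7% ± 5.32 of the receptors' summed reads with control siRNA (SD, n = 4).

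Unstimulated control siRNA libraries held Clec4d at 152 and 143 RPM in experiment 1 and 215 and 221 RPM in experiment 2. Isoproterenol libraries of the same siRNA held it at 223 and 242 RPM in experiment 1 and 292 and 324 RPM in experiment 2. All 4 stimulated libraries were above all 4 unstimulated ones, and experiment 2 was the higher experiment in both groups. With Cebpb siRNA the Clec4d values were 217 and 237 RPM in experiment 1 and 279 and 307 RPM in experiment 2. Adding isoproterenol to Cebpb siRNA gave 271 and 276 RPM in experiment 1 and 332 and 309 RPM in experiment 2. The groups with and without Cebpb siRNA overlapped over all 8 unstimulated libraries and separated within each experiment. Clec4d rose by 0.55 ± 0.06 on the log2 scale with isoproterenol (SE, limma adjusted p = 1.14e-05) and by 0.61 ± 0.06 with Cebpb siRNA (limma adjusted p = 2.15e-08). Its log2 difference for Cebpb siRNA in isoproterenol-treated cells was 0.21 (limma adjusted p = 0.0052), and that call was lost with the values as deposited (0.15, adjusted p = 0.076), without the experiment term (adjusted p = 0.232) and in experiment 2 alone (0.13, adjusted p = 0.302). For isoproterenol in Cebpb siRNA cells it was 0.15, with a 95% interval of 0.02 to 0.28 and a limma adjusted p of 0.172.

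For Clec4e, the control siRNA libraries held 222 and 226 RPM in experiment 1 and 262 and 283 RPM in experiment 2. With isoproterenol they held 334 and 349 RPM, then 398 and 398 RPM. The groups did not overlap, and the lowest stimulated library exceeded the highest unstimulated one. Cebpb siRNA alone left Clec4e at 261 and 267 RPM in experiment 1 and 306 and 308 RPM in experiment 2, and Cebpb siRNA with isoproterenol at 328 and 327 RPM, then 352 and 325 RPM. The last group had the narrowest spread and overlapped the lower control siRNA libraries with isoproterenol. Clec4e rose by 0.55 ± 0.06 with isoproterenol (SE, limma adjusted p = 1.66e-06) and by 0.29 ± 0.06 with Cebpb siRNA (limma adjusted p = 9.98e-05). In Cebpb siRNA cells the isoproterenol difference of Clec4e was 0.18 ± 0.06 (limma adjusted p = 0.0641), although those libraries did not overlap. Ordered by level, Clec4e ran from control siRNA through Cebpb siRNA and Cebpb siRNA with isoproterenol to control siRNA with isoproterenol, and the limma test separated the first neighbours only.

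The ratio of Clec4d to Clec4e within a library had nearly the same mean with and without isoproterenol and a higher mean with Cebpb siRNA. It averaged 0.730 ± 0.086 with control siRNA and 0.907 ± 0.0701 with Cebpb siRNA (SD, n = 4 each), without overlap (exact two-sided permutation test, p = 0.0286, the smallest that 4 against 4 libraries can give, and 0.0762 after adjustment over 8 ratio tests). With isoproterenol in both groups the ratio averaged 0.728 ± 0.0637 and 0.891 ± 0.0657, with the same exact p of 0.0286 and adjusted p of 0.0762. Neither comparison passes after adjustment, but neither could have given a smaller p, so nothing is concluded from this. The permutation also takes no account of experiment. Within experiments 1 and 2 the log2 differences of this ratio for Cebpb siRNA were 0.38 and 0.25 without isoproterenol, and 0.29 and 0.29 with it. The promoters of the pair are shown because the genes are neighbours that rose by the same amount with isoproterenol. Sequences are from RefSeq (GRCm38.p6), 250 bases before to 50 after the annotated start, read 5′ to 3′ on the gene's strand, chr6:123261857-123262156 (plus) for Clec4d and chr6:123289822-123290121 (minus) for Clec4e. Capitals mark matches to TTGCNNAA or TTGNNNAA, forms of the C/EBP binding motif, on either strand.
Clec4d: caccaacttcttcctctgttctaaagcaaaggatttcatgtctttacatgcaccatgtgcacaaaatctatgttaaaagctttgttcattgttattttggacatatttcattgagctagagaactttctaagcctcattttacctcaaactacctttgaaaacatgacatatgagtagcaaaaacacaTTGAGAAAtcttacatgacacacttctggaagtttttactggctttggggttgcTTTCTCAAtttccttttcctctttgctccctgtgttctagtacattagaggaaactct
Clec4e: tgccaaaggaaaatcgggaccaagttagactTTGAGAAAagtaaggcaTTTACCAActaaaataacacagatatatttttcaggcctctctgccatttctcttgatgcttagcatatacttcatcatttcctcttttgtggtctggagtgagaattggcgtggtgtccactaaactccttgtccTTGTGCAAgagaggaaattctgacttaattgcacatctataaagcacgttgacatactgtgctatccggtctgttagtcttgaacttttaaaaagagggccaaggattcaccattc
Clec4e held a match to TTGCNNAA beginning 66 bases before its start, as 10.8% of all 32851 promoters in the table held at least 1, and Clec4d held matches only to the wider TTGNNNAA, which 36.7% of promoters hold. Every TTGCNNAA match also matches TTGNNNAA. Neither promoter held the cAMP response element TGACGTCA (1.79% of promoters) or its shorter form TGACG (20.8%).

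Clec4n encodes Dectin-2, an FcRγ-coupled receptor for fungal mannans, and lies 15089 bases before Clec4d on the same strand (ENSMUSG00000023349.14, chr6:123229843-123247021), with 0 annotated genes between. Control siRNA libraries held Clec4n at 14.3 and 15.0 RPM in experiment 1 and 16.6 and 16.2 RPM in experiment 2. Isoproterenol libraries of that siRNA held 27.9 and 29.0 RPM, then 24.3 and 24.6 RPM. The groups were far apart in both experiments. Cebpb siRNA libraries held Clec4n at 52.3 and 52.3 RPM in experiment 1 but 32.9 and 31.1 RPM in experiment 2, and those with both agents held 61.4 and 64.1 RPM, then 39.6 and 34.0 RPM. Experiment 1 was therefore the higher experiment with Cebpb siRNA and also with control siRNA and isoproterenol. Only unstimulated control cells were slightly lower in it. Clec4n rose by 0.74 ± 0.13 with isoproterenol (SE, limma adjusted p = 0.00237) and by 1.49 ± 0.13 with Cebpb siRNA (limma adjusted p = 2.91e-09). The Cebpb siRNA difference of Clec4n was 1.89 in experiment 1 and 1.09 in experiment 2, and this difference between experiments was not tested. With isoproterenol in both groups the Cebpb siRNA difference was 0.93 (limma adjusted p = 2.46e-06), and isoproterenol in Cebpb siRNA cells gave 0.18 with a 95% interval of −0.09 to 0.45 (limma adjusted p = 0.477). The order of means was control siRNA, control siRNA with isoproterenol, Cebpb siRNA, and both agents. The last neighbours were not separated by the test, and the middle ones were not compared by a test but did not overlap.

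Clec5a encodes MDL-1, which couples to DAP12 and has been described as a receptor for dengue virus (ENSMUSG00000029915.14, chr6:40574894-40585821, minus strand). It was at 36.7 and 42.1 RPM in the control siRNA libraries of experiment 1 and 43.8 and 40.9 RPM in those of experiment 2. With isoproterenol these became 49.8 and 55.1 RPM, then 49.3 and 51.7 RPM. The stimulated libraries all lay above the unstimulated ones by a small margin. Cebpb siRNA libraries held Clec5a at 103 and 111 RPM in experiment 1 and 118 and 129 RPM in experiment 2, and with both agents at 107 and 102 RPM, then 113 and 131 RPM. The Cebpb siRNA libraries formed a separate high range in which libraries with and without isoproterenol overlapped. Clec5a was 2.99-fold higher with Cebpb siRNA (log2 1.58 ± 0.08, limma adjusted p = 1.30e-13) and 2.30-fold higher with isoproterenol in both groups (limma adjusted p = 8.46e-12). The isoproterenol rise was 0.31 ± 0.08 with control siRNA (SE, limma adjusted p = 0.042), and in Cebpb siRNA cells the estimate was −0.08, with a 95% interval of −0.24 to 0.08. The isoproterenol call for Clec5a is close to the threshold. It was lost when 9 of the 16 libraries were left out singly, namely control siRNA experiment 1 replicate 1 and experiment 2 replicates 1 and 2, Cebpb siRNA experiment 1 replicates 1 and 2, control siRNA with isoproterenol experiment 1 replicates 1 and 2 and experiment 2 replicate 2, and both agents experiment 2 replicate 1 (log2 0.26 to 0.33, adjusted p 0.0517 to 0.189). It was also lost with scaling by the median of log ratios (adjusted p = 0.0505), with no filter on low values (0.0599), in limma without trend and robust estimation (0.121) and in experiment 1 alone (0.0508).

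Clec12a and Clec7a differ in how they signal. Clec12a encodes MICL, whose inhibitory motif recruits the phosphatases SHP-1 and SHP-2 and which binds uric acid crystals, and Clec7a encodes Dectin-1, the receptor for fungal β-glucans, which carries an activating motif in its own tail. They lie 96287 bases apart on chromosome 6, with 5 annotated genes between them, Clec12a (ENSMUSG00000053063.11) at chr6:129342691-129365303 on the plus strand and Clec7a (ENSMUSG00000079293.11, annotated as a polymorphic pseudogene) at chr6:129461591-129472779 on the minus strand. Both fell with isoproterenol, and Cebpb siRNA went with opposite directions, up in Clec12a and down in Clec7a. Of all pairs of receptors they were the least alike over the 16 libraries.

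Clec12a was at 23.7 and 21.9 RPM in the control siRNA libraries of experiment 1 and at 31.4 and 30.2 RPM in those of experiment 2. Isoproterenol libraries of control siRNA held 10.5 and 11.9 RPM in experiment 1 and 19.3 and 24.0 RPM in experiment 2. The lower values with isoproterenol separated within each experiment but overlapped across experiments, because experiment 2 was higher throughout. Cebpb siRNA libraries held Clec12a at 72.7 and 67.8 RPM in experiment 1 and 95.6 and 126 RPM in experiment 2, and with both agents at 52.6 and 52.5 RPM, then 68.9 and 73.9 RPM. Every Cebpb siRNA library exceeded every control siRNA library, stimulated or not. Clec12a was 3.51-fold higher with Cebpb siRNA (log2 1.81 ± 0.11, limma adjusted p = 2.39e-12) and 4.13-fold higher when both groups had isoproterenol (log2 2.05 ± 0.11, limma adjusted p = 3.25e-13). It fell by 0.80 ± 0.11 on the log2 scale with isoproterenol in control siRNA cells (limma adjusted p = 7.90e-05) and by 0.57 ± 0.11 in Cebpb siRNA cells (limma adjusted p = 0.00192). In control siRNA cells that fall was −1.07 in experiment 1 and −0.53 in experiment 2.

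Clec7a had the lowest read numbers, 47 to 323 reads per library. Control siRNA libraries held it at 12.1 and 11.2 RPM in experiment 1 and 13.9 and 14.4 RPM in experiment 2, and isoproterenol libraries of that siRNA at 6.33 and 7.91 RPM, then 8.28 and 9.50 RPM. No stimulated library reached the lowest unstimulated one. With Cebpb siRNA Clec7a was at 7.95 and 7.34 RPM in experiment 1 and 7.95 and 9.87 RPM in experiment 2. With both agents it was at 3.43 and 3.43 RPM, then 5.47 and 5.33 RPM, below every library of the other groups. Control siRNA with isoproterenol and Cebpb siRNA alone overlapped. Clec7a fell by 0.72 ± 0.12 with isoproterenol in control siRNA cells (limma adjusted p = 9.42e-04) and by 0.98 ± 0.12 in Cebpb siRNA cells (limma adjusted p = 1.18e-05). It fell by 0.55 ± 0.12 with Cebpb siRNA alone (limma adjusted p = 3.17e-04) and by 0.81 ± 0.12 with isoproterenol in both groups (limma adjusted p = 3.07e-06). The promoters of Clec12a and Clec7a are shown because Cebpb siRNA moved them in opposite directions. Clec7a was the only receptor called lower, so it differed in direction from the other raised receptors too. The RefSeq windows are chr6:129349994-129350293 (plus) for Clec12a, which starts inside the GENCODE gene, and chr6:129472730-129473029 (minus) for the first of 2 starts of Clec7a. Capitals mark the same C/EBP forms.
Clec12a: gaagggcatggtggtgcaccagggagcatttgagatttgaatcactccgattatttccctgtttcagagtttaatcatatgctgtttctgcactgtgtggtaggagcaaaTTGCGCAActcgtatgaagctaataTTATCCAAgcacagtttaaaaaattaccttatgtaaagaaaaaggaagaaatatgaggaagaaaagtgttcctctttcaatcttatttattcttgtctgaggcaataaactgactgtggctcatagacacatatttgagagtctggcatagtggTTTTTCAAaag
Clec7a: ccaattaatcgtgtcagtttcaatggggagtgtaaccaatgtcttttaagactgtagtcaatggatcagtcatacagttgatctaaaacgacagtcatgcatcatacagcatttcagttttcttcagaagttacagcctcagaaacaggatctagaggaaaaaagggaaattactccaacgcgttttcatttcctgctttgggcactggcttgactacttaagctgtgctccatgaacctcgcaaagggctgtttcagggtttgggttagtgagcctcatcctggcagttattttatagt
Clec12a held TTGCGCAA, a perfect palindrome that matches TTGCNNAA on both strands, 140 bases before its start, and 2 further matches to TTGNNNAA. Neither of the C/EBP forms stands in this Clec7a window. Of the other receptors that rose with Cebpb siRNA alone, Clec4d, Clec5a and Mgl2 held 0 matches to TTGCNNAA and Clec4e held 1. Whether a match goes with the direction was not tested. The core GAGGAA of the PU.1 motif was in the promoters of all 6 receptors that had an entry, against 28.3% of all promoters, and TTGNNNAA in 5 of the 6. A match is a description of the letters, and binding was not measured.

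Clec10a (ENSMUSG00000000318.16, chr11:70156197-70170834) and Mgl2 (ENSMUSG00000040950.13, chr11:70130329-70137550) encode MGL1 and MGL2 and lie in a tandem on the plus strand of chromosome 11, 18646 bases apart with 0 annotated genes between. Of the 451 windows of 50 bases in the last 500 bases of Clec10a, 92 (20.4%) also occur in Mgl2. Of the 451 such windows of Mgl2, 19 (4.21%) occur in other genes, and Clec10a is not among those genes. A read lying wholly within a shared stretch could not have been placed uniquely, while a longer read reaching beyond it might have been. How far this touched the counts of either gene was not measured. Clec10a was at 110 and 106 RPM in the control siRNA libraries of experiment 1 and at 85.6 and 83.3 RPM in those of experiment 2. With isoproterenol it was at 126 and 142 RPM, then 114 and 111 RPM. Stimulated libraries were higher without overlap, and experiment 1 was the higher experiment in both groups. With Cebpb siRNA Clec10a reached 214 and 235 RPM in experiment 1 and 157 and 122 RPM in experiment 2, and with both agents 300 and 317 RPM, then 223 and 196 RPM. The rank of the 4 groups was the same in both experiments, with both agents at the top.

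Clec10a rose by 0.97 ± 0.08 with Cebpb siRNA (SE, limma adjusted p = 5.92e-10) and by 1.11 ± 0.08 with isoproterenol in both groups (limma adjusted p = 5.01e-11). Among the 8 receptors it was the only one called higher with isoproterenol in Cebpb siRNA cells, by 0.48 ± 0.08 (limma adjusted p = 5.04e-04). Clec4e joined it when the values were used as deposited (0.23, limma adjusted p = 0.0266) and in experiment 1 alone (0.28, limma adjusted p = 0.0245). Clec4e was also called when either of 2 libraries was left out (limma adjusted p = 0.0428 and 0.019). In control siRNA cells the isoproterenol rise of Clec10a was 0.33 ± 0.08 (limma adjusted p = 0.0311). That call was lost when 6 of 16 libraries were left out singly, namely control siRNA experiment 1 replicates 1 and 2 and experiment 2 replicate 2, and control siRNA with isoproterenol experiment 1 replicate 2 and experiment 2 replicates 1 and 2 (log2 0.28 to 0.35, adjusted p 0.0599 to 0.152). It was also lost with no filter on low values (adjusted p = 0.0529), in limma without trend and robust estimation (0.115) and in experiment 1 alone (0.0776).

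Mgl2 rose with Cebpb siRNA, as Clec10a did, and did not pass the test with isoproterenol. Its control siRNA libraries were at 46.5 and 52.4 RPM in experiment 1 and 29.7 and 29.0 RPM in experiment 2, and with isoproterenol at 54.5 and 58.8 RPM, then 32.5 and 34.4 RPM. Experiments differed more than these groups did. Cebpb siRNA gave 106 and 114 RPM in experiment 1 and 75.7 and 68.1 RPM in experiment 2, and both agents gave 116 and 118 RPM, then 77.5 and 74.4 RPM. All Cebpb siRNA libraries stood above all control siRNA ones. Mgl2 was 2.48-fold higher with Cebpb siRNA (log2 1.31 ± 0.06, limma adjusted p = 1.49e-13) and 2.27-fold higher with isoproterenol in both groups (limma adjusted p = 5.59e-13). The isoproterenol difference of Mgl2 was 0.16, with a 95% interval of 0.03 to 0.30, in control siRNA cells (limma adjusted p = 0.284) and 0.04, with a 95% interval of −0.10 to 0.17, in Cebpb siRNA cells (limma adjusted p = 0.823). The Clec10a to Mgl2 ratio went from 1.99 ± 0.134 to 2.70 ± 0.130 when isoproterenol was added to Cebpb siRNA cells (SD, n = 4; exact two-sided permutation test, p = 0.0286, adjusted p = 0.0762), without overlap. In control siRNA cells it was 2.54 ± 0.417 and 2.87 ± 0.590, which overlapped (exact p = 0.457). This permutation test takes no account of experiment, and within experiments 1 and 2 the log2 differences of the ratio in control siRNA cells were 0.11 and 0.23.

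**Figure D3:**
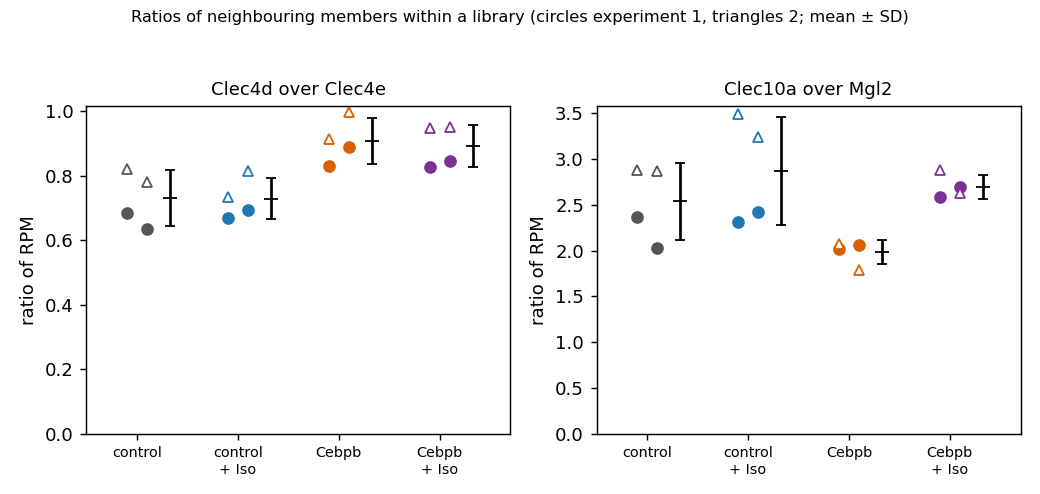
Ratio of RPM within a library (vertical axes, from 0) for the neighbouring pairs Clec4d over Clec4e and Clec10a over Mgl2; filled circles are experiment 1, open triangles experiment 2, bars the mean ± SD of 4 libraries. Clec4d over Clec4e averaged 0.730 and 0.728 with control siRNA and 0.907 and 0.891 with Cebpb siRNA, without and with isoproterenol.

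In Cebpb siRNA cells isoproterenol moved 3 of the 8 receptors, Clec10a up and Clec7a and Clec12a down, where 5.48% of all tested genes were called (3% higher and 2.48% lower). Of all calls 54.8% were higher, and 74.8% with the values as deposited. Without the experiment term, and in experiment 2 alone, the Clec7a call was the only receptor call kept. The receptor median was 0.09 against −0.00033 over all tested genes. The direct test of whether the isoproterenol effect differed between siRNAs called Clec4e alone among the receptors, where 0.235% of tested genes were called, 50% of them higher (61.9% with the values as deposited). The Clec4e effect in Cebpb siRNA cells less that in control siRNA cells was −0.37 ± 0.08 (limma adjusted p = 0.0449), at −0.29 in experiment 1 and −0.46 in experiment 2. This call held when both agents experiment 1 replicate 1 was left out and was lost when any other of the 16 libraries was (adjusted p 0.0513 to 0.134). Over all alternatives the adjusted p ran from 0.023 to 0.999. The other 4 receptors that rose with isoproterenol in control cells had differences of −0.39 ± 0.09 (Clec4d, limma adjusted p = 0.0747), −0.38 ± 0.11 (Clec5a, 0.239), −0.56 ± 0.18 (Clec4n, 0.431) and 0.15 ± 0.11 (Clec10a, 0.921), none past the threshold. The Clec4d difference passed without both agents experiment 1 replicate 1 (−0.43, adjusted p = 0.0476), and the Clec4n difference passed in experiment 1 alone (−0.69, adjusted p = 0.039). For Clec7a, Clec12a and Mgl2 the limma adjusted p was 0.898, 0.898 and 0.904. The 4 comparisons share libraries in pairs, and the difference of the isoproterenol effects uses all 4 groups, so their values are given side by side and not correlated.

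**Figure D4:**
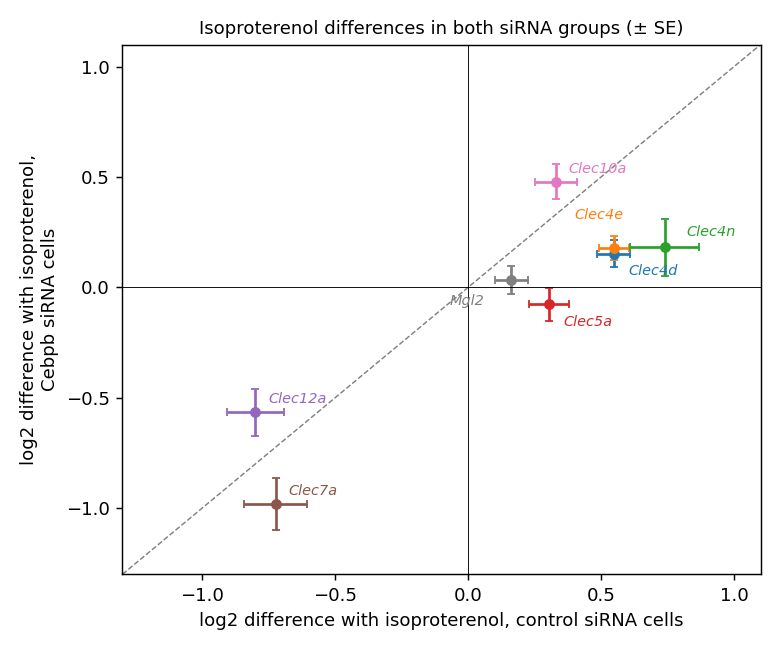
Log2 difference with isoproterenol in control siRNA cells (horizontal) and in Cebpb siRNA cells (vertical), limma estimates ± SE; the dashed line marks equal differences. Clec4d, Clec4e and Clec4n lay between 0.55 and 0.74 on the horizontal axis and between 0.15 and 0.18 on the vertical, and Clec10a lay at 0.33 and 0.48.

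The summed level of the 8 receptors averaged 663 ± 52.6 RPM with control siRNA, 911 ± 62.2 RPM with isoproterenol, 1075 ± 29.0 RPM with Cebpb siRNA and 1215 ± 48.5 RPM with both (SD, n = 4). Clec4d and Clec4e made up 70.1% ± 4.21 of those reads with control siRNA and isoproterenol, 50.7% ± 5.24 with Cebpb siRNA and 52.0% ± 4.49 with both. Clec12a went from 4.02% ± 0.415 of receptor reads with control siRNA to 1.78% ± 0.577 with isoproterenol, and it was at 8.39% ± 2.31 with Cebpb siRNA. Clec7a fell from 1.94% ± 0.0936 to 0.366% ± 0.106 between untreated control cells and cells with both agents as a share of reads, given without a test.

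By root mean square difference of centred log2 values over 16 libraries, Clec4d and Clec4e were the closest pair of receptors (0.19), then Clec4n and Clec10a (0.25) and Clec10a and Mgl2 (0.26), and Clec7a and Clec12a the farthest (1.33). Among 6698 other genes, those nearest to Clec4d were Cd14 (0.14) and Atp1b3 (0.15), and those nearest to Clec4e were Ms4a6d (0.10) and Twf1 (0.13). Clec5a was nearest to St3gal1 (0.14) and Hexim1 (0.15). Clec10a was nearest to Ggta1 (0.14) and Ddit4 (0.14), and Clec4n to Ddit4 (0.25) and Sema4a (0.27). Mgl2 was nearest to Lbh (0.16) and Map1lc3a (0.16), and Clec7a to Ptchd1 (0.20) and Ighm (0.30). Clec12a had no gene closer than Cd72 (0.42), another lectin-like receptor with an inhibitory motif, and Rgs18 (0.45). These likenesses share the same libraries and carry no test.

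Of 60 other C-type lectin and lectin-like genes 11 were tested. Isoproterenol raised 4 of the 11 and lowered 0 with control siRNA, where 1.65% of all tested genes were called. Their median was 0.30 against 0 over all tested genes. Cebpb siRNA without isoproterenol raised 10 and lowered 0, with a median of 0.68, where 61.3% of all tested genes were called. With isoproterenol in both groups 9 were raised and 0 lowered, where 62% of all tested genes were called. In Cebpb siRNA cells isoproterenol raised 5 and lowered 0, where 5.48% of all tested genes were called. Clec4a1 and Clec4a2, members of the DCIR subfamily, rose by 1.57 and 1.97 with Cebpb siRNA (limma adjusted p = 1.27e-13 and 2.12e-12) and by 0.56 and 0.53 with isoproterenol in control cells (limma adjusted p = 8.56e-05 and 0.0146). Cd93, a receptor involved in clearance of dying cells, rose by 2.32 with Cebpb siRNA (limma adjusted p = 3.66e-13) and by 1.04 with isoproterenol (limma adjusted p = 1.32e-05). Cd72 was 1.38 higher with Cebpb siRNA (limma adjusted p = 3.65e-11) and at −0.34 with isoproterenol, which did not pass (limma adjusted p = 0.0787).

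Of 38 adaptors and kinases of the Syk-Card9 pathway 36 were tested. Cebpb siRNA raised 15 and lowered 8 without isoproterenol, and raised 16 and lowered 7 with it, where 61.3% and 62% of all tested genes were called, so the counts do not set this list apart. Fcer1g, the adaptor that Clec4d, Clec4e and Clec4n use, rose by 0.59 ± 0.06 (SE, limma adjusted p = 5.09e-09), the Src-family kinase Lyn by 0.84 ± 0.07 (limma adjusted p = 1.36e-09) and the calcineurin subunit Ppp3ca by 0.91 ± 0.05 (limma adjusted p = 8.45e-13). Bcl10, the link between Card9 and Malt1, fell by 0.95 ± 0.10 (limma adjusted p = 6.24e-08) and by 1.21 ± 0.10 with isoproterenol in both groups (limma adjusted p = 1.38e-09). Isoproterenol with control siRNA raised 0 of the 36 and lowered 1, where 1.65% of all tested genes were called. That 1 was the PI3-kinase subunit Pik3cd, lower by 0.25 ± 0.06 (limma adjusted p = 0.0285). In Cebpb siRNA cells isoproterenol raised 2 and lowered 0, where 5.48% of all tested genes were called. The 2 were Syk (0.30 ± 0.09, limma adjusted p = 0.0431) and the transcription factor Nfatc2 (0.33 ± 0.09, limma adjusted p = 0.0394).

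Of 23 inhibitory phosphatases and regulators 22 were tested, and Cebpb siRNA raised 9 and lowered 7 without isoproterenol and raised 9 and lowered 6 with it, beside the 61.3% and 62% of all tested genes called. Inpp5d, which encodes the lipid phosphatase SHIP1, rose by 0.64 ± 0.06 with Cebpb siRNA (limma adjusted p = 3.33e-09). It was the 1 gene of the list called for isoproterenol in Cebpb siRNA cells, by 0.48 ± 0.06 (limma adjusted p = 1.33e-05), where 5.48% of all tested genes were called. Isoproterenol with control siRNA called 0 of the 22 by limma, where 1.65% of all tested genes were called, and 4 had an unadjusted p under 0.05. The adaptor Dok3 rose by 1.37 ± 0.11 with Cebpb siRNA (limma adjusted p = 3.94e-10).

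Of 29 cytokines and other known outputs of these receptors 18 were tested, and they did not move as a block. Isoproterenol with control siRNA raised 3 and lowered 0, where 1.65% of all tested genes were called. The 3 were the cyclooxygenase gene Ptgs2, by 0.70 ± 0.12 (limma adjusted p = 0.00162), the neutrophil chemokine gene Cxcl2, by 0.75 ± 0.13 (limma adjusted p = 0.00353), and Il1b (limma adjusted p = 1.12e-06). In the unstimulated control siRNA libraries Il1b stands at 0, and with isoproterenol it was at 3.24 to 5.13 RPM. Cebpb siRNA raised 11 and lowered 3 without isoproterenol, and raised 8 and lowered 5 with it, again where 61.3% and 62% of all tested genes were called. The chemokine genes Ccl3 and Ccl4 fell by 2.33 ± 0.08 and 0.94 ± 0.06 (limma adjusted p = 8.47e-16 and 3.81e-11), while the NF-κB subunit genes Rel and Relb rose by 1.07 ± 0.07 and 1.24 ± 0.11 (limma adjusted p = 4.09e-11 and 2.75e-09). In Cebpb siRNA cells isoproterenol raised 2 and lowered 3, where 5.48% of all tested genes were called. Among the 3 was Ccl4, which fell by 0.55 ± 0.06 (limma adjusted p = 9.63e-06). Ccl4 was also the 1 gene of the list whose isoproterenol effect differed between siRNAs (−0.58 ± 0.09, limma adjusted p = 0.00234), where 0.235% of all tested genes were called.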

How the data were processed

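RNA from 16 libraries was measured with a 3′-end kit (Lexogen QuantSeq 3′ FWD), per the labels' protocols. The deposited values are log2 RPM, as worked out from the values, with 1 RPM or less listed as 0; RPM are reads per 1000000 reads of a library of all kinds, which include unmapped (5.07 to 7.61%) and multimapping (19.4 to 22.3%) reads. STAR 2.5.3a and GRCm38 are named in the submitters' processing notes, and the read counter and its strand setting are not given in the sources used. Values were whole reads to within a tolerance of 0.1 in 100% of cases, which gave the depths.

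From these, log2 values were rescaled by a trimmed mean of log ratios (30% by ratio, 5% by level), set to a common floor, and genes above the floor in at least 4 libraries were fitted with limma 3.58.1 in R 4.3.3 (trend and robust estimation, 4 groups plus experiment, 16 libraries, Benjamini-Hochberg over 11060 genes, threshold 0.05). RPM in the text are as deposited, and differences are from the rescaled values. Ratios were tested by exact permutation. The p-values measure the spread among these libraries. Alternatives were scaling, filters, a pseudocount of 1, the experiment term, the replicate block, the groups entering the fit, each experiment alone, plain limma, and leaving out each library. Experiment was a term because libraries of an experiment deviated together from their group means (correlations 0.207 to 0.501).

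Members and lists were chosen with earlier results of these data known. Named genes are all 8 receptors, up to 6 genes of each other list per comparison with the smallest adjusted p, the 2 genes nearest to each receptor among those of at least 10 RPM, and Cebpb. Promoters came from RefSeq (6 of 8 receptors matched), gene positions and transcript ends from GENCODE vM21.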

Additional observations from a re-analysis of the deposited data

Results flagged for a closer look

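The isoproterenol effect on Clec4e differed between the siRNAs, with a log2 difference of −0.3713 between the effect in Cebpb siRNA cells and that in control siRNA cells (limma adjusted p = 0.0449). The call was lost in 23 of 26 alternatives. Clec4e had risen by 0.55 with control siRNA and was 0.18 higher with Cebpb siRNA, and in both cases the libraries with and without isoproterenol did not overlap.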

How the results depend on the processing

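Over the 8 receptors and the settings other than leaving out a library, 392 values kept direction and side of the threshold, 35 lost a call, 4 gained 1 and 1 reversed (Clec12a, difference of the isoproterenol effects, −0.15 in experiment 2 alone). Leaving out 1 library kept 607, lost 30, gained 3 and reversed 0.

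Without the experiment term isoproterenol called 44 genes and 1 receptor with control siRNA, 197 genes and 1 receptor with Cebpb siRNA, and 10 genes and 0 receptors for the difference. With only the groups compared it called 526 and 282 genes. Experiment 1 alone gave 114, 251 and 12 genes with 5, 4 and 1 receptors, gaining Clec4e with Cebpb siRNA (0.28, limma adjusted p = 0.0245) and, for the difference, calling Clec4n and not Clec4e, and experiment 2 alone 21, 145 and 2 genes with 1, 1 and 0 receptors. Limma without trend and robust estimation gave 116 genes with control siRNA and 0 receptors for the difference. Requiring all 16 libraries above the floor gave 12 genes and 0 receptors for the difference, and log2(RPM + 1) gave 17 and 0. The values as deposited gave 0 receptors for it, and also called Clec4e for Cebpb siRNA with isoproterenol (−0.15, limma adjusted p = 0.0372) and for isoproterenol in Cebpb siRNA cells (0.23, limma adjusted p = 0.0266).

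Leaving out 1 library, isoproterenol called 100 to 263 genes with control siRNA against 183, with 100 to 117 without control siRNA experiment 1 replicate 1 or experiment 2 replicate 2, or without control siRNA with isoproterenol experiment 1 replicate 2 or experiment 2 replicates 1 or 2. The receptors called for the difference ranged from 0 to 2. Clec4e was called for isoproterenol in Cebpb siRNA cells without Cebpb siRNA experiment 2 replicate 2 (limma adjusted p = 0.0428) or both agents experiment 2 replicate 2 (0.019).

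Same-numbered replicates within an experiment showed no deviation of a steady sign (correlations −0.192 to 0.230), so the main fit did not pair libraries by number. With 2 libraries per group and experiment these correlations cannot tell whether same-numbered libraries were handled together. With the replicate block, isoproterenol called 152 genes and 6 receptors with control siRNA, losing Clec5a (limma adjusted p = 0.0579), and 0 receptors for the difference (Clec4e, limma adjusted p = 0.0775).

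The near-zero difference in Cebpb turned to −0.00248 (median of log ratios), −0.0103 (log2(RPM + 1)) and −0.33 (experiment 2), and ran from −0.28 to 0.20 leaving out libraries. The isoproterenol difference in Cebpb with Cebpb siRNA was −0.18 in experiment 2 and −0.0240 to 0.45 leaving out libraries. The cause was not tested for any of these. Depth limits Clec7a most, at 47 reads in its lowest library.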

Other observations

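Of 29 myeloid transcription factor genes 27 were tested. The list includes Cebpb, the target of the siRNA, which is counted among the genes lowered by Cebpb siRNA without and with isoproterenol. Isoproterenol with control siRNA raised 6 and lowered 0, where 1.65% of all tested genes were called. Among the 6, Fos rose by 1.44 ± 0.11 (SE, limma adjusted p = 1.40e-08), Crem, a cAMP-responsive factor, by 0.87 ± 0.10 (limma adjusted p = 1.51e-05) and Fosl2 by 0.66 ± 0.08 (limma adjusted p = 1.74e-05). In Cebpb siRNA cells isoproterenol raised 7 and lowered 0, with Crem at 1.08 ± 0.10 (limma adjusted p = 4.86e-07), where 5.48% of all tested genes were called. Cebpb siRNA raised 17 and lowered 7 without isoproterenol, with Junb higher by 1.17 ± 0.06 (limma adjusted p = 8.85e-13), Stat3 by 0.84 ± 0.06 (limma adjusted p = 2.01e-11) and Irf8 lower at −0.70 ± 0.07 (limma adjusted p = 1.76e-08), and it raised 17 and lowered 8 with isoproterenol, where 61.3% and 62% of all tested genes were called. Cebpd, the gene of a related C/EBP factor, rose by 0.43 ± 0.09 with isoproterenol in control siRNA cells (limma adjusted p = 0.0127). Its isoproterenol effect with Cebpb siRNA lay below that in control siRNA cells by a log2 difference of −0.62 ± 0.13 (limma adjusted p = 0.0448). This difference is larger than the rise in control siRNA cells, so by estimate no rise remained with Cebpb siRNA.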
